A study of Homo sapiens with 12 samples.

Results

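The genes described here are IL32 and 9 further inflammatory cytokine and chemokine genes, IL6, CXCL8, CXCL1, CXCL2, IL1A, IL1B, CCL2, LIF and IL11, in SW1736 cells, an established anaplastic thyroid cancer line. All 10 symbols were found among the 56832 in the count files, and 6 of them (IL32, CXCL8, CXCL1, IL1A, IL1B and LIF) had enough reads to be among the 14431 genes tested. IL32 was chosen by its read counts, which rose from about zero in a single group, so its levels in that group are a description and carry no test. The other 9 were added by name as its functional neighbours, with earlier results of these data known.

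The cells, sequenced as 4 groups with 3 libraries each, carried either the lentiviral vector pCDH without an insert (EV) or the same vector with thyroid hormone receptor beta (pCDH-TRB, here TRB), labelled as stably expressed. Every group was first starved of hormone for 24 hours, in medium without phenol red and with charcoal-stripped serum. The groups then differed by a further 24 hours with 10 nM triiodothyronine (T3) or its NaOH vehicle in each of the lines. Whether the lines were clones or pools, and whether the 3 libraries came from separate cultures, is not given in the sources used here, so p-values measure the spread between libraries only. EV cells were the control without supplied receptor, and they retained their own THRB transcript.

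Cytokines are secreted messengers of inflammation. Receptors for interleukin 1 and for bacterial products activate the transcription factors NF-kappaB and AP-1, which bind near the start sites of chemokine genes such as CXCL8 and CXCL1 and of IL6. IL6, LIF and IL11 signal through a shared receptor chain, gp130, encoded by IL6ST. IL32 is made by lymphocytes and by epithelial and tumour cells, has no counterpart in mice, and can induce other cytokines in monocytes. Tumour cell lines often secrete CXCL8 and CXCL1, which draw neutrophils, and interleukin 1 alpha, which acts as an alarm signal when cells are damaged.

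Promoters are shown for IL32, which rose, and for 3 chemokine genes that stood lower in the same cells, since all 4 contain the same short sequence class. They are the 250 bases before the RefSeq start site (GRCh38.p14), written 5′ to 3′ on the strand of the gene, and capitals mark matches to the NF-kappaB-like word GGNNTTTCC on either strand. A promoter entry was found for 8 of the 10 genes, and for IL32 the start site supported by 8 annotated GENCODE starts within 50 bases was taken. The table's other IL32 window, before the start at base 3065784 with 2 such starts, held no match to this word and is not shown. The windows are chr16:3065153-3065402 for IL32, chr4:73740319-73740568 for CXCL8, chr4:73869143-73869392 for CXCL1 and, on the minus strand, chr4:74099196-74099445 for CXCL2.
IL32: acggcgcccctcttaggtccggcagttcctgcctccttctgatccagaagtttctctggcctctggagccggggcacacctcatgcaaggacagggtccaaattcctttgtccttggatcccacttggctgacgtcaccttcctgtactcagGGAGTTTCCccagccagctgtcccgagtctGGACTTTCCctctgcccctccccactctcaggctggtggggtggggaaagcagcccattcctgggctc
CXCL8: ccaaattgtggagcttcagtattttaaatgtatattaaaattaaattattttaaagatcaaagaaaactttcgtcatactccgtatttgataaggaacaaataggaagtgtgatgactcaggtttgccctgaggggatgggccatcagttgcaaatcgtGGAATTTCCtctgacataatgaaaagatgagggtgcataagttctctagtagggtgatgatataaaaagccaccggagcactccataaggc
CXCL1: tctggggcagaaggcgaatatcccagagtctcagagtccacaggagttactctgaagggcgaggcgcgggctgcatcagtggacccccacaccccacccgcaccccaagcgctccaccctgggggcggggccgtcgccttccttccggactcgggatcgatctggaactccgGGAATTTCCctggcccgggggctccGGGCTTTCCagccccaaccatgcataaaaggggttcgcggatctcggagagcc
CXCL2: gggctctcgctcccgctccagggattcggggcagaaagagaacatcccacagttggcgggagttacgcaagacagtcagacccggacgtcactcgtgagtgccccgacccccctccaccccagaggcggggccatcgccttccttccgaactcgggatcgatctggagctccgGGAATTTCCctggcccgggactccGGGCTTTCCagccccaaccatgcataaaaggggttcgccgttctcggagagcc

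The IL32 window held GGAGTTTCC, which began 98 bases before the start, and GGACTTTCC at 68 bases. CXCL8 held GGAATTTCC at 91 bases. CXCL1 and CXCL2 shared the pair GGAATTTCC (at 78 and 77 bases) and GGGCTTTCC (at 53 bases in each), so these promoters are alike in sequence and are not independent examples. IL6, whose window held GGATTTTCC at 72 bases, carried a match too. Over the 35116 RefSeq promoter windows of this length 5.48% held such a match, and the word was chosen after these letters were seen. The AP-1 word TGANTCA stood in 6.57% of windows and was found in those of CXCL8, IL1A and IL11. The thyroid hormone response half-site AGGTCA stood in 12.1% of windows and, of the 8 genes, only IL11 had one. Its spaced direct repeat, the DR4 element, was in 0.0142% of windows and in none of these. A match to letters is a description, and its absence says only that the letters are not in this window.

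Reads assigned to genes ranged from 3819306 to 13086717 per library, so that 1 read was worth 0.0750 to 0.253 CPM, the unit of all levels given here (reads relative to library size, with TMM factors). THRB stood at 14.6 ± 1.39 CPM (SD, n = 3) and 14.9 ± 3.04 in EV cells with vehicle and T3, and at 80.1 ± 0.314 and 269.6 ± 69.8 in TRB cells. One library stood apart: TRB with T3 replicate 2 differed from replicates 1 and 3 by gene GC content, with a Spearman correlation of -0.885 across 12157 genes, which are not independent replicates. The biological coefficient of variation of that group was 0.629 with it and 0.0576 without it. In EV cells with T3 it was 0.219, against 0.0925 in EV cells and 0.0807 in TRB cells with vehicle. EV with T3 replicate 3 had the fewest reads, 3819306, and 92.0% of its entries were not uniquely aligned. Values that rest on TRB with T3 replicate 2 are given with all 12 libraries and with 11. Of 12 immune cell markers, 6 (CD3E, CD3D, CD2, NKG7, GNLY and MS4A1) had 0 reads in every library, while LYZ reached 1589 CPM. All 6 epithelial markers were above 1 CPM in every group, and the thyroid markers FOXE1 and TSHR had 0 reads throughout.

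IL32 reads appeared almost only in TRB cells with T3. It is annotated at chr16:3065297-3082192 on the plus strand (GRCh38, GENCODE 29), where a small nuclear RNA gene, RNU1-125P, and a long noncoding RNA on the other strand, AC108134.3, overlap it. In TRB cells with T3 the 3 libraries held 573, 52 and 407 reads, which is 43.0, 9.35 and 50.8 CPM. The library that stands apart is the low one, and even it lay far above each of the other 9 libraries. EV cells with vehicle had 0 reads in all 3 libraries, EV cells with T3 had 1, 2 and 0, and TRB cells with vehicle had 0, 1 and 0. The mean in TRB cells with T3 was 34.4 ± 22.0 CPM (SD, n = 3), and 46.9 without replicate 2.

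Against a floor of 3 reads per library, IL32 was at least 127-fold higher in TRB cells with T3 than in TRB cells with vehicle. Taken one library at a time the bound was 158-fold, 34.4-fold and 187-fold. The bound was 88.0-fold against EV cells with vehicle and 67.0-fold against EV cells with T3. These folds are set by the choice of the gene and are not evidence beyond it. In bulk RNA, more cells with the transcript and more transcript per cell cannot be told apart. EV cells with T3 and all vehicle cells were at or under the floor, so no fold between them is given. IL32 was kept by the low-count filter only through TRB cells with T3, and the 3 reads in EV cells with T3 are too few to show whether it responds there.

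**Figure D1:**
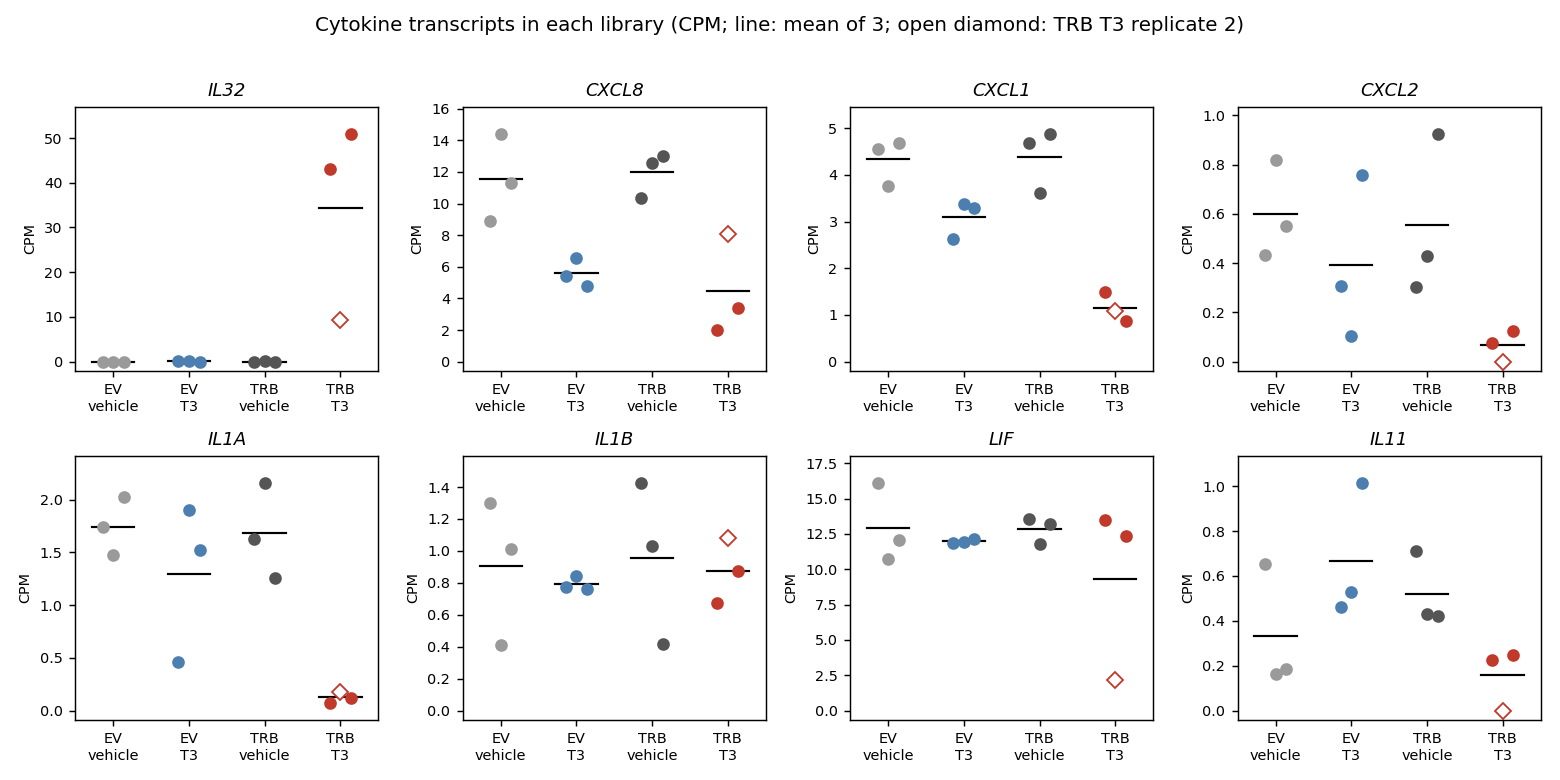
Levels of the 8 cytokine genes with more than 1 read, in CPM (vertical axis, from 0, scaled per gene), for each library of the 4 groups (horizontal axis). Points are libraries, lines are means of 3 and the open diamond is TRB with T3 replicate 2. IL32 is at 9.35 to 50.8 CPM in TRB cells with T3 and at 0.211 CPM or less elsewhere, whereas CXCL1 and IL1A are lowest in that group.

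Genes with the same profile as IL32 were ranked by the Pearson correlation of log2 CPM with that of IL32 over the 12 libraries, given as a description with no test. The 5 nearest were a transcript named only by its clone (0.993), TIMP2 (0.993), PADI3 (0.991), PLAT (0.990) and KIAA0125 (0.990). Over the 11 libraries without TRB with T3 replicate 2 these values were between 0.989 and 0.994. All points share library depth and the same single high group. TIMP2, an inhibitor of metalloproteinases, differed from the others in having a level without T3: it stood at 96.4 to 145.9 CPM in the 9 other libraries and at 1049, 556.8 and 1143 CPM in TRB cells with T3. PADI3, a peptidylarginine deiminase, stood at 0 to 0.463 CPM in the 9 and at 24.6, 5.04 and 24.7 CPM. PLAT, tissue plasminogen activator, had at most 0.0817 CPM in the 9 and 4.43, 1.80 and 5.37 CPM. In each of the 3 profiles replicate 2 is the lowest of the TRB libraries with T3, as it is for IL32.

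Among the other 9 genes, of which 5 were tested, 3 fell with T3 in TRB cells: the neutrophil chemokine genes CXCL8 and CXCL1, and IL1A. None of the 5 rose. Over all tested genes 6.20% were called lower and 14.7% were called in either direction at an adjusted p under 0.05. The libraries of the T3 and vehicle groups did not overlap, with T3 lower, for 5 of the 9 (CXCL8, CXCL1, CXCL2, IL1A and IL11). Of these CXCL2 and IL11 were not tested. Among tested genes the same held for 3 of the 5 (CXCL8, CXCL1 and IL1A) and for 23.5% of all. The same 3 were called with 11 libraries, where 15.2% of genes were called lower.

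CXCL8 (chr4:73740506-73743716, plus strand) encodes interleukin 8. It stood at 8.90, 14.4 and 11.3 CPM in EV cells with vehicle and at 10.4, 12.6 and 13.01 in TRB cells with vehicle. With T3 it stood at 5.40, 6.55 and 4.81 CPM in EV cells and at 2.03, 8.10 and 3.37 in TRB cells. Both T3 groups lay below both vehicle groups without overlap, and replicate 2 is the high library of TRB cells with T3. The fitted change with T3 in TRB cells was -1.47 on the log2 scale (SE 0.416, adjusted p 0.0376, edgeR). Without replicate 2 it was -2.16 (SE 0.263, adjusted p 4.07e-05).

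With 12 libraries the CXCL8 call in TRB cells was not firm. Fitted on the compared groups alone its adjusted p was 0.202. Leaving out EV vehicle replicate 3 gave 0.0541 and leaving out EV T3 replicate 1 gave 0.0532. Leaving out a TRB vehicle library gave 0.0694 (replicate 1), 0.0913 (replicate 2) or 0.0987 (replicate 3), and leaving out a TRB T3 library gave 0.0665 (replicate 1) or 0.0768 (replicate 3). In all 22 settings the change was negative, from -2.16 to -1.09.

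CXCL1 (chr4:73869393-73871242, plus strand) encodes a ligand of the neutrophil receptor CXCR2. It stood at 4.56, 3.76 and 4.69 CPM in EV cells with vehicle, at 2.62, 3.38 and 3.29 in EV cells with T3 and at 4.68, 3.62 and 4.87 in TRB cells with vehicle. In TRB cells with T3 it stood at 1.501, 1.08 and 0.874 CPM, below all 9 other libraries. The change with T3 in TRB cells was -1.87 (SE 0.256, adjusted p 0.000704, edgeR), and -1.75 (adjusted p 0.000332) with 11 libraries. It was called in all 22 settings. CXCL1 and CXCL2 transcripts share 60 stretches of 50 bases, 5.73% of those of CXCL1, so a small part of their reads could be split between the genes.

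CXCL2 (chr4:74097035-74099293, minus strand), the near copy of CXCL1, had too few reads to be tested. TRB cells with vehicle held 3, 5 and 11 reads and TRB cells with T3 held 1, 0 and 1. Summed and scaled by depth the second group was 7.66-fold lower, with an exact 95% interval from 1.85 to 67.8 that covers counting error only. Fitted without the low-count filter its adjusted p was 0.0840. EV cells had 18 reads with vehicle and 6 with T3.

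IL1A (chr2:112773915-112784590, minus strand) encodes interleukin 1 alpha. It stood at 1.74, 1.47 and 2.02 CPM in EV cells with vehicle, at 0.463, 1.90 and 1.52 in EV cells with T3 and at 1.63, 2.15 and 1.26 in TRB cells with vehicle. Each of the TRB libraries with T3 held a single read, which is 0.0750, 0.180 and 0.1249 CPM, below the other 9. Summed, 3 reads against 56 with vehicle gave a level 15.05-fold lower, with an exact 95% interval from 4.89 to 75.2 that covers counting error only. The test called IL1A lower (adjusted p 0.00194, edgeR, and 0.000982 with 11 libraries) in all 22 settings. Its fitted change of -3.74 (SE 0.599) depends on the prior count and was -2.496 with a prior count of 2.

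IL1B (chr2:112829751-112836903, minus strand), the neighbouring gene for interleukin 1 beta, showed no such change. Its mean lay between 0.792 and 0.959 CPM in all 4 groups, and its 12 libraries held 3 to 14 reads each. With T3 in TRB cells the change was -0.16 (SE 0.486, adjusted p 0.837), a standard error that leaves changes of the size seen for CXCL8 poorly resolved. The difference between the changes of IL1A and IL1B was not tested.

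LIF (chr22:30240447-30246851, minus strand), a gp130 cytokine, turned on a single library. It stood at 13.5, 11.8 and 13.2 CPM in TRB cells with vehicle and at 13.5, 2.16 and 12.4 with T3. Replicate 2 is far below its group, and the other 2 libraries lie within the range of the vehicle cells. The change was -0.43 (SE 0.463, adjusted p 0.537) with 12 libraries and 0.07 (SE 0.166, adjusted p 0.799) with 11, which turned its direction. In EV cells LIF stood at 12.9 ± 2.79 CPM with vehicle and 11.99 ± 0.140 with T3. Reads of the antisense genes LIF-AS1 and AC004264.1 overlap it and cannot be told apart, since strand use in counting is not given in the sources used here.

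IL11 (chr19:55364389-55370463, minus strand), another gp130 cytokine, held 7, 5 and 5 reads in TRB cells with vehicle and 3, 0 and 2 with T3. The summed level was 2.74-fold lower with an exact 95% interval from 0.971 to 9.50, so a difference from vehicle was not detectable at this depth. Against EV cells with T3, which held 3, 5 and 4 reads, it was 3.24-fold lower with an interval from 1.06 to 11.8. The libraries did not overlap, as for 14.7% of tested genes. Both intervals cover counting error only. Fitted without the low-count filter, the comparison with EV cells with T3 had an adjusted p of 0.330 (edgeR) and was not called. The remaining genes were not seen. IL6 (chr7:22725884-22732002) had 0 reads in all 12 libraries, which allows up to 0.0278 CPM over their sum. It overlaps STEAP1B and AC073072.1 on the other strand, and reads over such an overlap can go uncounted when strand is not used. CCL2 (chr17:34255218-34257203), a monocyte chemokine, had 1 read in EV cells with T3 replicate 1.

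**Figure D2:**
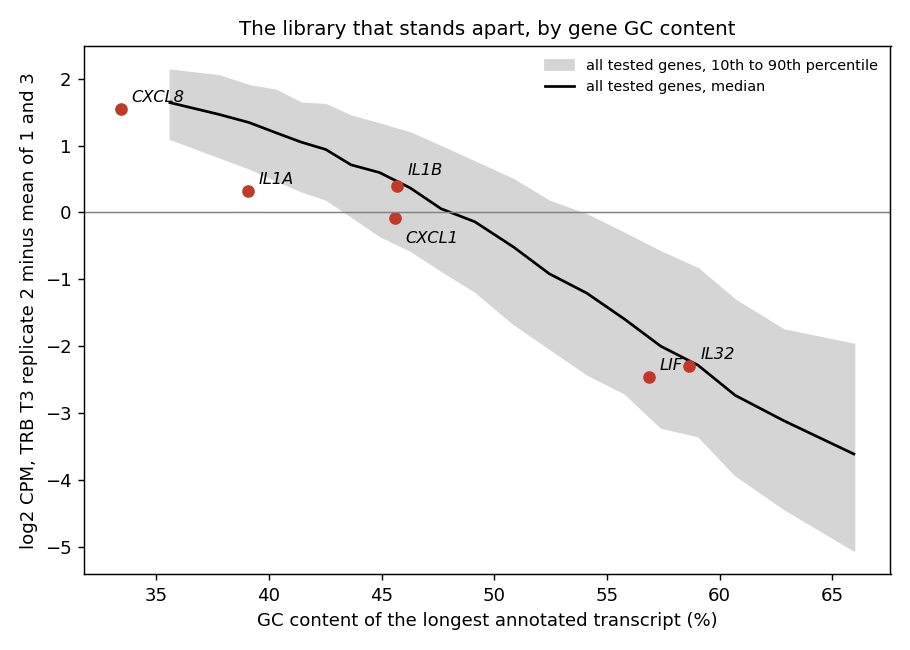
Difference in log2 CPM between TRB with T3 replicate 2 and the mean of replicates 1 and 3 (vertical axis) against the GC content of each gene's longest annotated transcript (horizontal axis, %), with the median (line) and the 10th to 90th percentiles (band) of all tested genes. IL32 at 58.7% GC and LIF at 56.9% are read low in this library, by -2.29 and -2.47, and CXCL8 at 33.4% is read high, by 1.55.

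IL32, LIF, CXCL8, CXCL1 and IL1B lay within the band of other genes in that library or, for CXCL8, beyond its low GC end. CXCL1 at 45.6% GC and IL1B at 45.7% differed by -0.08 and 0.39 between replicate 2 and the mean of replicates 1 and 3, against a median of -0.06 over all genes. IL1A at 39.1% GC, with its single reads, differed by 0.32, under the 10th percentile of 0.662 for genes of like GC content. The low IL32 and LIF values and the high CXCL8 value of replicate 2 thus go with transcripts of high and low GC content. Whether GC content sets them was not tested for single genes.

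Compared per kilobase of exon, the order of the genes changed with T3 in TRB cells. With vehicle CXCL8 led at 5.27 CPM per kilobase, above CXCL1 at 3.39 and LIF at 3.23, and the libraries of CXCL1 and LIF overlapped. IL1A followed at 0.791, CXCL2 at 0.369, IL1B at 0.310 and IL11 at 0.195, each overlapping the next, and IL32 stood at 0.00895, above only IL6 and CCL2 with no reads. With T3, IL32 led at 10.7 CPM per kilobase, followed by LIF at 2.35, CXCL8 at 1.98 and CXCL1 at 0.889. In replicates 1 and 3 IL32 stood at 13.4 and 15.8 against 3.40 and 3.12 for LIF. In replicate 2 CXCL8 at 3.56 exceeded IL32 at 2.92.

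In EV cells, which have only their own receptors, T3 called 0 of the 10 genes with 12 libraries in edgeR's quasi-likelihood model of the 4 groups (6 were tested, of which IL32 had too few reads in these groups to be called), where 0.229% of all genes were called. At an unadjusted p under 0.05 there was 1, CXCL8, and the share of all genes at that level is not given here. DESeq2 and limma-voom also called 0, where they called 1.19% and 0.222% of all genes. CXCL8 changed by -1.04 (SE 0.412, adjusted p 0.710, edgeR) with the T3 libraries all below the vehicle libraries, which held for 15.9% of tested genes. Without TRB with T3 replicate 2, a library outside this comparison whose spread enters the shared estimate, the change was -1.03 and CXCL8 passed (adjusted p 0.0176), where 7.33% of genes were called. CXCL1 was -0.48 (SE 0.243, adjusted p 0.886), IL1A -0.40 (0.935), LIF -0.10 (0.973) and IL1B -0.05 (0.987). The EV libraries with T3 were more uneven than those with vehicle, so a lack of calls does not show a lack of response.

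The receptor without hormone moved none of the 6 tested genes detectably. In vehicle, TRB against EV cells called 0 of the 10 genes with edgeR. Of the 10, 6 were tested, and IL32 with 1 read in these groups could not be called. There were 0 at an unadjusted p under 0.05, and 0 were called with DESeq2 and limma-voom. Over all genes 0.0208% were called with edgeR, 0.0554% with DESeq2 and 0.0139% with limma-voom. The share of all genes at the unadjusted level is not given here. In a fit of the compared groups alone 11.2% of all genes were called, and again 0 of the 10. The 5 tested genes other than IL32 changed by -0.05 to 0.18, with standard errors of 0.228 to 0.486.

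**Figure D3:**
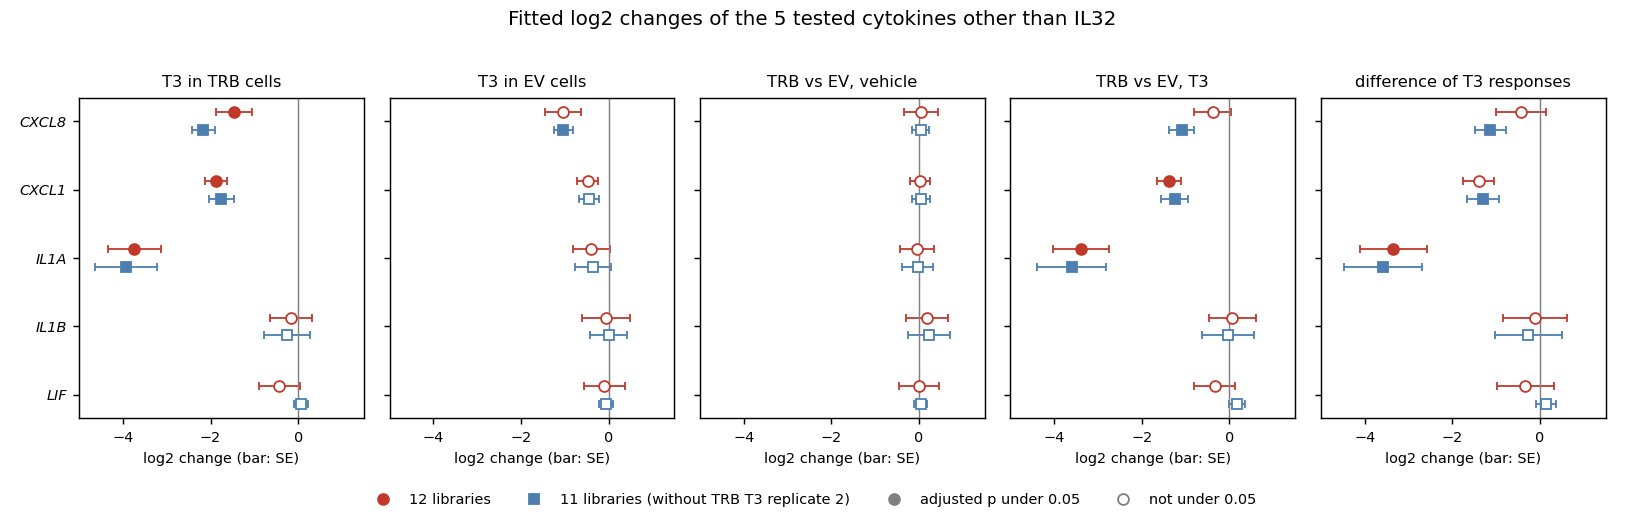
Fitted log2 changes of the 5 tested genes other than IL32 (horizontal axis, bars are standard errors) in each of the 5 comparisons, with all 12 libraries (circles) and without TRB with T3 replicate 2 (squares). Filled symbols have an adjusted p under 0.05. CXCL1 and IL1A lie to the left of 0 in the 3 comparisons that hold TRB cells with T3, and with vehicle every symbol lies near 0.

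With T3 in both lines, CXCL1 and IL1A were lower in TRB than in EV cells, 2 of the 9 genes, where 2.55% of all genes were called lower. Of the 9, IL6, CXCL2, CCL2 and IL11 were not tested. CXCL1 changed by -1.37 (SE 0.270, adjusted p 0.0130, edgeR) and its TRB libraries all lay below the EV libraries, as for 14.7% of tested genes. IL1A, with 3 reads against 27, was 12.2-fold lower (exact 95% interval 3.74 to 62.7, counting error only) and was called (adjusted p 0.0108). CXCL8 was not called with 12 libraries (-0.39, SE 0.428, adjusted p 0.552) and was with 11 (-1.09, adjusted p 0.0192), where 7.90% of genes were called lower. With offsets for gene GC content, chosen after seeing the data, CXCL8 was called too (-1.23, adjusted p 0.00185, edgeR). In that fit 28.7% of all genes were called. These calls share libraries with the comparison of T3 with vehicle and are not separate evidence. Without EV with T3 replicate 2 neither remained called (adjusted p 0.0593 for CXCL1 and 0.0602 for IL1A). Without EV with T3 replicate 3 CXCL1 was at 0.0530, and in a fit of the compared groups alone it was at 0.231.

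The test of the difference between the T3 responses of TRB and EV cells passed for 1 of the 9 genes, IL1A. Of the 9, IL6, CXCL2, CCL2 and IL11 were not tested. Over all genes 0.825% were called lower and 2.59% in either direction. IL1A differed by -3.34 (SE 0.767, adjusted p 0.0485, edgeR), a value that depends on the prior count as above. It passed in 8 of 21 settings, and leaving out any 1 of 10 libraries ended the call, with adjusted p between 0.0773 and 0.129: all 6 vehicle libraries, EV with T3 replicates 2 and 3, and TRB with T3 replicates 1 and 3. CXCL1 differed by -1.40 (SE 0.353, adjusted p 0.0697) and passed without TRB with T3 replicate 2 (0.0320) or replicate 1 (0.0486). CXCL8, lower with T3 in both lines, differed by -0.43 (SE 0.581, adjusted p 0.634), and by -1.13 (adjusted p 0.0467) with 11 libraries, where 6.68% of genes were called lower. With offsets for gene GC content, chosen after seeing the data, the difference was -1.67 for CXCL8 (adjusted p 0.00214, edgeR). It was -1.55 for CXCL1 (adjusted p 0.00945), where 19.2% of all genes were called. For CXCL8 the main fit with 12 libraries thus does not show that the change in TRB cells differs from that in EV cells. That outcome turned with the setting.

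Several receptors of these cytokines had no reads. Of 19 receptors and signal transducers 12 were tested, and with T3 in TRB cells 1 rose and 0 fell, with 8.54% of all genes called higher. The median change over the 12 was 0.20, against 0.01 over all genes. CXCR1 and CXCR2, the receptors for CXCL8 and CXCL1, had 0 reads in all libraries, as had CCR2, ACKR1 and LIFR, while OSMR had 1 read. IL1R1, the signalling interleukin 1 receptor, had 0 to 10 reads per library and was not tested.

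The receptor gene that rose was IL6R, the binding chain for interleukin 6. It stood at 10.4, 7.19 and 8.27 CPM in EV cells with vehicle, at 4.63, 3.49 and 4.56 in EV cells with T3 and at 7.52, 7.75 and 7.05 in TRB cells with vehicle. In TRB cells with T3 it stood at 22.5, 18.0 and 23.0 CPM, so the groups moved apart in opposite directions. The change with T3 was 1.51 in TRB cells (SE 0.203, adjusted p 0.000639, edgeR, called in all 22 settings). In EV cells it was -1.03 (SE 0.216, adjusted p 0.118), and 0.00804 with 11 libraries. The difference of 2.54 (SE 0.296, adjusted p 0.00206) passed in all 21 settings, with 1.77% of all genes called higher. The ligand IL6, as above, had no reads.

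IL6ST, the gp130 chain, stood at 65.6 to 81.3 CPM in TRB cells with vehicle and at 109.2, 303.3 and 99.8 with T3. Its change of 1.19 (SE 0.433, adjusted p 0.0939) was 0.53 (adjusted p 0.150) with 11 libraries, and leaving out TRB with T3 replicate 3 brought it past the threshold (adjusted p 0.0414, which made the list's count 2). IL11RA, the interleukin 11 receptor, stood at 2.48, 0.720 and 1.75 CPM with T3 and at 2.52 to 3.46 with vehicle, a change of -0.72 (SE 0.413, adjusted p 0.258). IL1RAP, the second interleukin 1 receptor chain, had 0.29 (SE 0.404, adjusted p 0.645), and -0.37 with 11 libraries, where its direction turned.

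Of 18 inhibitor and feedback genes 15 were tested, and with T3 in TRB cells 1 rose and 1 fell, against 8.54% and 6.20% of all genes called higher and lower. The median was 0.06 over the 15. With 11 libraries 5 rose and 1 fell, against 18.1% and 15.2% of all genes. IL1RN, the soluble antagonist of interleukin 1, stood at 1.22, 1.72 and 1.59 CPM in TRB cells with vehicle and at 9.16, 5.22 and 8.24 with T3. All T3 libraries lay above all vehicle libraries, as for 17.3% of tested genes, and the change was 2.32 (SE 0.266, adjusted p 0.000230, edgeR, called in all 22 settings). In EV cells IL1RN went from 2.58 ± 0.250 to 4.96 ± 0.967 CPM, a change of 0.91 (SE 0.267, adjusted p 0.395, and 0.0263 with 11 libraries).

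IL1R2, the decoy receptor for interleukin 1, stood at 8.84, 9.31 and 10.4 CPM in TRB cells with vehicle and at 5.10, 3.24 and 5.50 with T3. It fell by 1.03 on the log2 scale (SE 0.234, adjusted p 0.0136). The call was lost without TRB with vehicle replicate 2 or 3 (0.0545 and 0.0751), without the low-count filter (0.0513) and in a fit of the compared groups alone (0.139). So the count of this list was 1 in those settings.

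**Figure D4:**
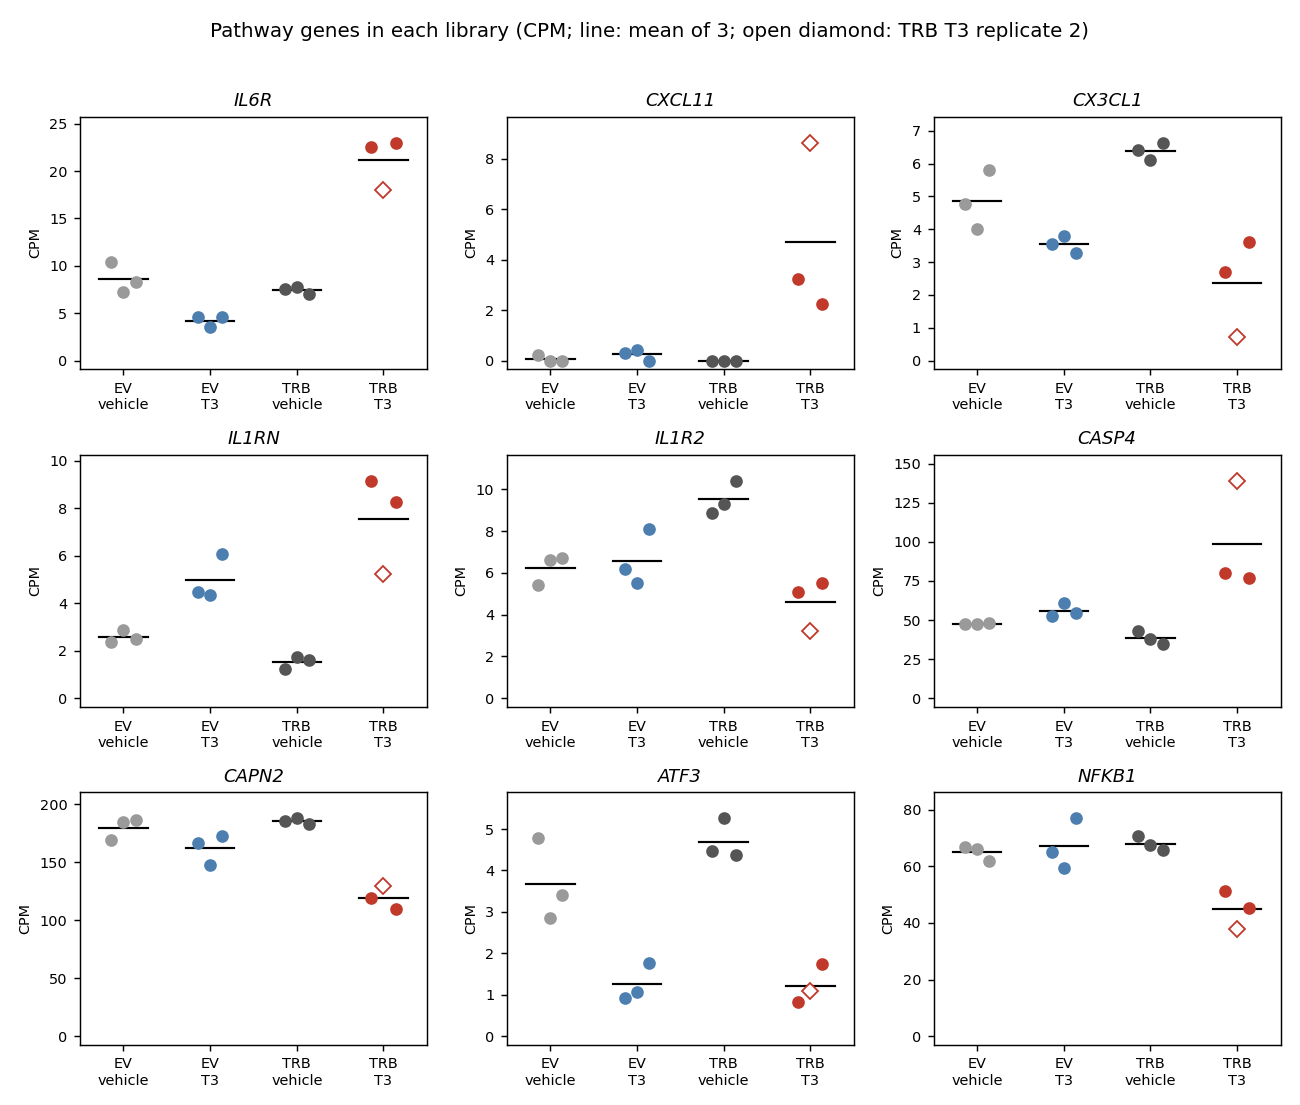
Levels in CPM (vertical axis, from 0, scaled per gene) of the 9 pathway genes called for T3 against vehicle in TRB cells, for each library of the 4 groups (horizontal axis). Points are libraries, lines are means of 3 and the open diamond is TRB with T3 replicate 2. IL6R is at 18.0 to 23.0 CPM in TRB cells with T3 and at 10.4 or less elsewhere, and ATF3 is low in both T3 groups.

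Most other inflammatory cytokines had too few reads to be tested. Of 32 listed, 9 were tested, and with T3 in TRB cells 1 rose and 1 fell, with a median of 0.20 and with 8.54% and 6.20% of all genes called higher and lower. CXCL11, an interferon-induced ligand of CXCR3, had 0 reads in each TRB library with vehicle and 43, 48 and 18 reads with T3, which is 3.23, 8.63 and 2.25 CPM. Against 3 reads per library it was at least 17.3-fold higher, and at least 10.1-fold without replicate 2. It was kept by the low-count filter only through this group, so its call is no support beyond these reads. Unlike IL32 it is highest in that library. EV cells had 1 read with vehicle and 6 with T3.

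CX3CL1, the membrane-bound chemokine fractalkine, stood at 6.40, 6.12 and 6.63 CPM in TRB cells with vehicle and at 2.702, 0.720 and 3.62 with T3. The change was -1.38 (SE 0.373, adjusted p 0.0308), and -0.996 (adjusted p 0.00272) with 11 libraries. It was called in 11 of 22 settings, and leaving out any library other than TRB with T3 replicates 2 and 3 ended the call (adjusted p 0.0529 to 0.106). The count of this list was then 1, or still 2 without TRB with T3 replicate 1. With 11 libraries 10 genes of the list were tested, 3 rose (CXCL11, CXCL16 and CLCF1) and 4 fell (CX3CL1, IL18, IL33 and CXCL3), where 18.1% of all genes were called higher and 15.2% lower.

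IL33, an alarm cytokine of the interleukin 1 family, was low in both T3 groups, like CXCL8. It stood at 11.5 ± 2.94 CPM and 4.46 ± 0.560 in EV cells with vehicle and T3, and at 8.09 ± 0.970 and 3.93 ± 2.21 in TRB cells. Its change was -1.09 (SE 0.346, adjusted p 0.0585) in TRB cells and -1.37 (SE 0.347, adjusted p 0.243) in EV cells. With 11 libraries both passed (-1.57, adjusted p 0.000275, and -1.38, adjusted p 0.00217). IL33 was named after its values were seen.

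Of the genes that process interleukin 1, 12 of the 13 listed were found, 7 were tested, and 1 rose and 1 fell with T3 in TRB cells, with a median of -0.16 and with 8.54% and 6.20% of all genes called higher and lower. CASP4, a caspase that senses bacterial lipopolysaccharide in the cytosol, went from 42.7, 37.7 and 35.0 to 80.0, 139.1 and 76.8 CPM, without overlap. Its change was 1.36 (SE 0.230, adjusted p 0.00274), and 1.08 with 11 libraries. CAPN2, a calpain subunit, went from 185.7, 187.8 and 182.9 to 119.3, 129.3 and 110.05 CPM, a change of -0.63 (SE 0.135, adjusted p 0.00977). In a fit of the compared groups alone neither passed (0.0649 and 0.134), and CAPN2 did not pass without the low-count filter (0.101).

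All 15 transcription factors of the NF-kappaB, AP-1 and C/EBP families were tested, and with T3 in TRB cells 0 rose and 2 fell, against 8.54% and 6.20% of all genes. Their median change was -0.42 with 12 libraries and 0.01 with 11, where 0 rose and 3 fell, against 18.1% and 15.2% of all genes. ATF3, a stress-induced AP-1 family factor, went from 4.47, 5.26 and 4.36 to 0.826, 1.08 and 1.75 CPM, a change of -1.97 (SE 0.327, adjusted p 0.00244, called in all 22 settings). In EV cells ATF3 went from 3.68 ± 0.989 to 1.25 ± 0.455 CPM, -1.58 (SE 0.352, adjusted p 0.146, and 0.0215 with 11 libraries).

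NFKB1, which encodes the p50 subunit of NF-kappaB, went from 70.7, 67.7 and 65.8 to 51.3, 38.0 and 45.2 CPM, a change of -0.60 (SE 0.168, adjusted p 0.0354). It was called in 9 of 22 settings, and leaving out any library other than TRB with T3 replicates 1 and 2 ended the call (0.0528 to 0.155), which left 1 gene of the list.

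In EV cells T3 called 0 genes in each of these 5 lists with edgeR and 12 libraries, where 0.229% of all genes were called. At an unadjusted p under 0.05 there was 1 gene in each list except interleukin 1 processing, where there were 0. The share of all genes at that level is not given here. Limma-voom called 0 in each, and DESeq2 called 1 receptor gene, 1 other cytokine and 1 transcription factor. Over all genes limma-voom called 0.222% and DESeq2 1.19%. Without TRB with T3 replicate 2 the receptor list gave IL6R, the cytokine list IL33, the inhibitor list IL1RN and the factor list ATF3, 1 call each, where 7.33% of all genes were called. In a fit of the compared groups alone the cytokine list also gave 1 call, IL33, where 1.49% of all genes were called.

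Among immune markers, CD14, a monocyte surface protein that epithelial cells can also make, stood at 9.23, 0.180 and 9.74 CPM in TRB cells with T3 and at 2.28 or less in the other 9 libraries. It was thus high in 2 of the 3 libraries that held IL32. In replicate 2, the library that stands apart by gene GC content, its level is worth 1 read. The lowest of the other 9, EV with vehicle replicate 1 at 0.217 CPM, is also worth 1 read, so no order between them is read. The part of CD14 in the IL32 result was not tested. The 6 lymphocyte, natural killer and B cell markers named above were at 0 reads in the same libraries, and PTPRC, the pan-leukocyte marker CD45, reached 0.217 CPM at most. A further B cell marker, CD79A, had 0 reads in TRB cells with T3 and reached 0.528 CPM in EV cells with T3. CD68 reached 1.01 CPM at most and ITGAM 0.172 CPM. The summed level of all 12 immune markers was 788 to 1589 CPM in TRB cells with T3 and 804 to 983 in TRB cells with vehicle, nearly all of it LYZ.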

How the data were processed

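RNA of 12 SW1736 libraries was extracted with Trizol, had RNA integrity numbers above 7 and was made into libraries with a Kapa Hyperprep kit, per the labels' protocols. The authors deposited raw read counts per gene symbol. The submitters' processing notes name CASAVA 1.7, STAR 2.7, HTSeq 0.10, DESeq2 and the build hg38, and the annotation, counting options and strand setting are not given in the sources used here. Lines for reads of no gene were left out of library sizes. Not uniquely aligned reads were 19.0% to 92.0% of the entries in a file.

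The analysis used edgeR 4.0.16 in R 4.3.3. Low genes were removed with filterByExpr (minimum count 10, minimum total 15), libraries were scaled by TMM and 14431 genes were fitted by quasi-likelihood in a single model of the 4 groups. Tests were two-sided and Benjamini-Hochberg adjusted over all tested genes at 0.05. Standard errors derive from the log2 change and its F statistic. Settings tried were DESeq2 1.42.0, limma-voom (limma 3.58.1), other scalings, no filter, a prior count of 2, the compared groups alone, a replicate block, each library left out, and GC offsets (spline with 5 degrees of freedom, 12157 genes), which were chosen after seeing the data. A prior count of 2 alters the fitted log2 change and not the calls, so in the tallies of 21 or 22 settings for single genes it repeats the main fit. The procedure was tested on simulated data with the same spread in every library, no library that stands apart, and changes only in well-read genes. The simulation therefore does not cover TRB with T3 replicate 2 or genes with few reads, such as IL1A. Intervals and floors of 3 reads cover counting error only.

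The members, the 5 pathway lists and the rules were chosen with earlier results of these data known. All members are named, with the called genes of each list taken by lowest p for T3 in TRB cells and the 5 genes most like IL32. Coordinates are from GENCODE 29 (GRCh38) and promoter sequences from RefSeq (GRCh38.p14).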

Additional observations from a re-analysis of the deposited data

Results flagged for a closer look

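For 2 genes the test of the difference between the T3 responses of TRB and EV cells passed. IL1A differed by -3.34 on the log2 scale (SE 0.767, adjusted p 0.0485, edgeR), with a single read in each TRB library with T3 and 27 reads over the EV libraries with T3. IL6R differed by 2.54 (SE 0.296, adjusted p 0.00206), higher with T3 in 3 of 3 TRB libraries and lower in 3 of 3 EV libraries than in any vehicle library of the same line.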

How the results depend on the processing

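Counts of genes called for T3 in TRB cells lay between 2 and 3 in every setting, where 4.52% to 42.6% of all genes were called. CXCL1 and IL1A were called in all 22 settings and CXCL8 in 14 of 22. Counts for TRB against EV cells in vehicle were 0 in every setting, where 0.00658% to 11.2% of all genes were called. For T3 in EV cells the count was 0, except 1 without TRB with T3 replicate 2 (leave-one-out range 0 to 1). Over all genes 7.33% were called in that setting and 0.0625% to 4.46% in the others. For TRB against EV cells with T3 the main count of 2 became 1 without the low-count filter and 0 with the compared groups alone. Over all genes 2.19% and 0.241% were called in those settings. The count ranged from 0 to 3 when each library was left out, where 2.79% to 19.7% of all genes were called. For the difference of the T3 responses the main count of 1 became 0 without the filter and with limma-voom, and 3 with GC offsets. Over all genes 0.783%, 2.72% and 19.2% were called in those settings. With a library left out the count was 0 to 3, where 0.918% to 15.2% of all genes were called. The cause was not tested. For T3 in TRB cells the pathway list counts (receptors 1, and 2 in each of the other cytokines, inhibitors, interleukin 1 processing and factors) became 4, 7, 6, 5 and 6 with GC offsets. Over all genes 14.7% were called in the main fit and 42.6% with GC offsets. With the compared groups alone other cytokines, inhibitors and factors gave 1 and processing 0, where 4.52% of all genes were called. Without the filter other cytokines gave 4 and inhibitors, processing and factors 1, where 5.97% of all genes were called. DESeq2 gave 2 receptors and 4 other cytokines, with 21.5% of all genes called. RLE factors gave 1 factor, with 14.8% called.

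The replicate block also gave 0 for the difference of responses (IL1A, adjusted p 0.0677) and changed no other count of called genes among the 10. The labels do not say that a number marks a shared culture or day. Deviations from group means of same-numbered libraries correlated from -0.190 to 0.728 (median 0.149, against -0.0938 for other pairs), and 7 of 12 libraries correlated best with one of their own number. Same-numbered pairs had the higher median, though some were negative. As the labels name no pairing, the main fit did not pair the libraries, and the replicate block is the fit that uses the numbers.

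Several changes turned direction, none of them called in the setting that turned it. LIF for TRB against EV in vehicle (-0.0024) became 0.0329 with RLE factors, 0.0448 with upper-quartile factors, 0.0624 with total library size, 0.0303 with DESeq2, 0.0245 with limma-voom, 0.0137 with the replicate block and 0.0685 with the compared groups alone, and ranged from -0.10 to 0.21 with a library left out. IL1A there became 0.0119 with total library size and 0.214 with GC offsets (left out, -0.24 to 0.16). IL1B became 0.00379 (T3 in TRB) and 0.107 (T3 in EV) with limma-voom, 0.0325 (T3 in EV) and -0.0325 (TRB against EV with T3) with GC offsets and -0.0218 (TRB against EV with T3) with total library size. With GC offsets the LIF difference of responses was 0.105 and IL1RAP with T3 in TRB was -0.217.

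With a library left out, T3 in TRB ranged from -0.52 to 0.24 for IL1B, -0.76 to 0.0657 for LIF and -0.37 to 0.56 for IL1RAP. T3 in EV ranged from -0.89 to 0.0565 for IL1A, -0.44 to 0.24 for IL1B and -0.18 to 0.13 for LIF. TRB against EV in vehicle ranged from -0.0691 to 0.26 for CXCL8, -0.0519 to 0.18 for CXCL1 and -0.22 to 0.58 for IL1B. TRB against EV with T3 ranged from -1.09 (called, without TRB with T3 replicate 2) to 0.00495 (without TRB with T3 replicate 1) for CXCL8, -0.0340 to 0.28 for IL1B and -0.65 to 0.17 for LIF. The difference of responses ranged from -0.49 to 0.30 for IL1B and -0.69 to 0.13 for LIF. Depth limits IL6, CCL2, CXCL2, IL11 and IL1B, which held at most 14 reads in any library.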
